A study of Mus musculus with 104 samples.

Results

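Described here are 10 genes that mark the pluripotent epiblast of the early mouse embryo: Pou5f1, Nanog, Sox2, Utf1, Lin28a, Dppa4, L1td1, Slc7a3, Pou3f1 and Eras. They were taken by symbol, and all 10 have a row among the 22592 of the Kmt2b expression table and the 22593 of the Tet1/2 table. The epiblast is the cup of cells that forms the whole body of the embryo at gastrulation. Its cells are held in a primed pluripotent state by transcription factors, chief among them Pou5f1 (Oct4), Sox2 and Nanog, which bind each other's genes and those of many other epiblast genes. As germ layers form, Nanog and Pou5f1 are shut off in the soma, while Sox2 stays on in neural progenitors. The other members are Pou3f1 (Oct6), a POU factor of primed cells and neural precursors, Utf1 and Dppa4, which encode chromatin proteins of pluripotent cells, Lin28a and L1td1, whose products bind RNA, Slc7a3, a transporter of cationic amino acids, and Eras, a Ras-like GTPase of embryonic stem cells.

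RNA libraries made with Smart-seq2 came from mouse embryos of crosses between DBA2 males and C57BL/6N females. Epiblasts at embryonic day (E) 6.5 came from 3 WT, 3 Kmt2b-/- (KO) and 2 Tet1-/-;Tet2-/- (DKO) samples, E8.5 heads from 3 WT and 2 KO samples of the Kmt2b set and 2 WT and 2 DKO samples of the Tet1/2 set, and E9.5 heads from 3 WT samples and 1 KO sample. Kmt2b encodes a histone H3 lysine 4 methyltransferase, and Tet1 and Tet2 encode enzymes that oxidise 5-methylcytosine. Heads were cut off near the neck and so hold brain, surface ectoderm, mesenchyme and other tissue. Levels are the authors' FPKM, which scale fragment counts by transcript length and by the size of the library, so that levels can be compared between genes. The read depth is unknown.

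The Kmt2b table gives 1 merged value per group, so its differences have no error and no test. The Tet1/2 table has 1 column for each of 9 libraries. Its 3 WT epiblast columns are those of the Kmt2b set, so that in the E6.5 comparison the DKO genotype and the set cannot be told apart. Nothing in the labels says that the samples of a group came from separate animals, and p-values then measure only the spread between these samples. Tet1 was at 4.77 to 6.29 FPKM in WT and 2.92 to 3.82 in DKO epiblasts, and at 2.55 to 3.33 in WT and 1.28 to 1.29 in DKO heads. Tet2 was under 0.5 FPKM in all 9 libraries, and Kmt2b, listed as Wbp7, went from 0.701 to 0.308 at E6.5, 0.600 to 0.133 at E8.5 and 1.20 to 0.0349 at E9.5 (WT to KO). The part of each gene that was deleted is not given in the sources used here. Ddx3y, a Y-linked gene, was at 13.6 to 24.2 FPKM in the 3 WT epiblasts, DKO epiblast 1 and both DKO heads and at 0.0119 to 0.0746 in DKO epiblast 2 and both WT heads, where Xist, the RNA of the inactive X, was at 1.75 to 9.05. In the heads of the Tet1/2 set, sex and genotype cannot be told apart.

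Promoter sequence is shown for the members whose window holds a POU or Sox motif, because Pou5f1 and Sox2 bind DNA side by side at such motifs. RefSeq promoter windows of build GRCm38.p6, from 250 bases before to 50 after a gene's start, were found for 7 of the 10 members, and Dppa4, Slc7a3 and Pou3f1 are only named. Both strands were searched for an octamer core, ATGCAAA, and a Sox core, CATTGT, which share no bases where they stand side by side. Of 32851 windows, 4.63% hold the octamer core, 12.6% the Sox core and 0.813% both. The stretches below lie upstream of the start, are written in the direction of the gene, and carry the matches in capitals.
Nanog, chr6:122707384-122707457, + strand: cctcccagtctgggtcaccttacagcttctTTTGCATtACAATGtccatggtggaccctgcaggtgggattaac
Sox2, chr3:34649866-34649932, + strand: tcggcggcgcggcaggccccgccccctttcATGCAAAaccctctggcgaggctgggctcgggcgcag
Pou5f1 (the second of its 2 windows), chr17:35508619-35508684, + strand: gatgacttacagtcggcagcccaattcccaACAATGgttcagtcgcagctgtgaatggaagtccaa
Lin28a, chr4:134018877-134018942, - strand: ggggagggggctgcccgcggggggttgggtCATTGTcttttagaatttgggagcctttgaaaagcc
Eras, chrX:7928620-7928685, - strand: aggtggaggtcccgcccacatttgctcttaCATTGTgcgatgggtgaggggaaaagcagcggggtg

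Nanog is the member whose window holds both cores, with 1 base between them, both read on the strand opposite to the gene. Sox2 holds the octamer core alone, and Lin28a, Eras and the second Pou5f1 window the Sox core alone. In the windows of Utf1 and L1td1 and the first of Pou5f1 these letters were not found. The windows also differ in content of CpGs, the sites whose methylation Tet enzymes remove. The ratio of observed to expected CpGs was 0.819 for Sox2, above 80.7% of all windows, 0.615 for Utf1 (65.2%) and 0.559 for L1td1 (61.6%). It was 0.374 for the first Pou5f1 window (49.1%), 0.351 for Lin28a (47.1%), 0.310 for Eras (42.9%) and 0.192 for Nanog (27.5%). Lin28a, L1td1 and Pou3f1 lie on chromosome 4, and Slc7a3 and Eras on the X chromosome. Sox2 lies within Sox2ot, Slc7a3 overlaps Snx12, and Eras overlaps Pcsk1n. Smart-seq2 does not mark strand, so reads of overlapping genes cannot be told apart.

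In the WT epiblast the members spanned about the range from 3 to 310 FPKM. Utf1 was highest, at 263, 310 and 252 FPKM in the 3 libraries (275 ± 30.6, SD, n = 3), followed by Pou5f1 at 223, 265 and 238 (242 ± 21.1). Their ranges overlapped, but Utf1 was the higher of the pair in each library. Slc7a3 came next at 182, 149.9 and 150.1 (161 ± 18.8), below every Pou5f1 value. Nanog (38.3, 50.1 and 57.8), Eras (43.8, 43.3 and 47.7) and L1td1 (38.2, 47.1 and 41.8) formed a middle group whose libraries overlapped. Lin28a followed at 17.7, 26.7 and 24.9. Dppa4 was the least even member, at 4.59, 25.1 and 5.32. It was below Lin28a in each library, but its place relative to Pou3f1 (4.56, 7.07 and 5.48) is not set by these libraries. Sox2 was lowest, at 3.13, 3.56 and 3.37, below every Pou3f1 value. Fgf5, a ligand of the primed epiblast, had a mean of 84.2 FPKM in these libraries, and the heads carried the neural plate and brain list (16 genes such as Pax6 and Six3) at a summed 132 to 184 FPKM against 4.53 to 11.6 in the 5 epiblasts.

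**Figure D1:**
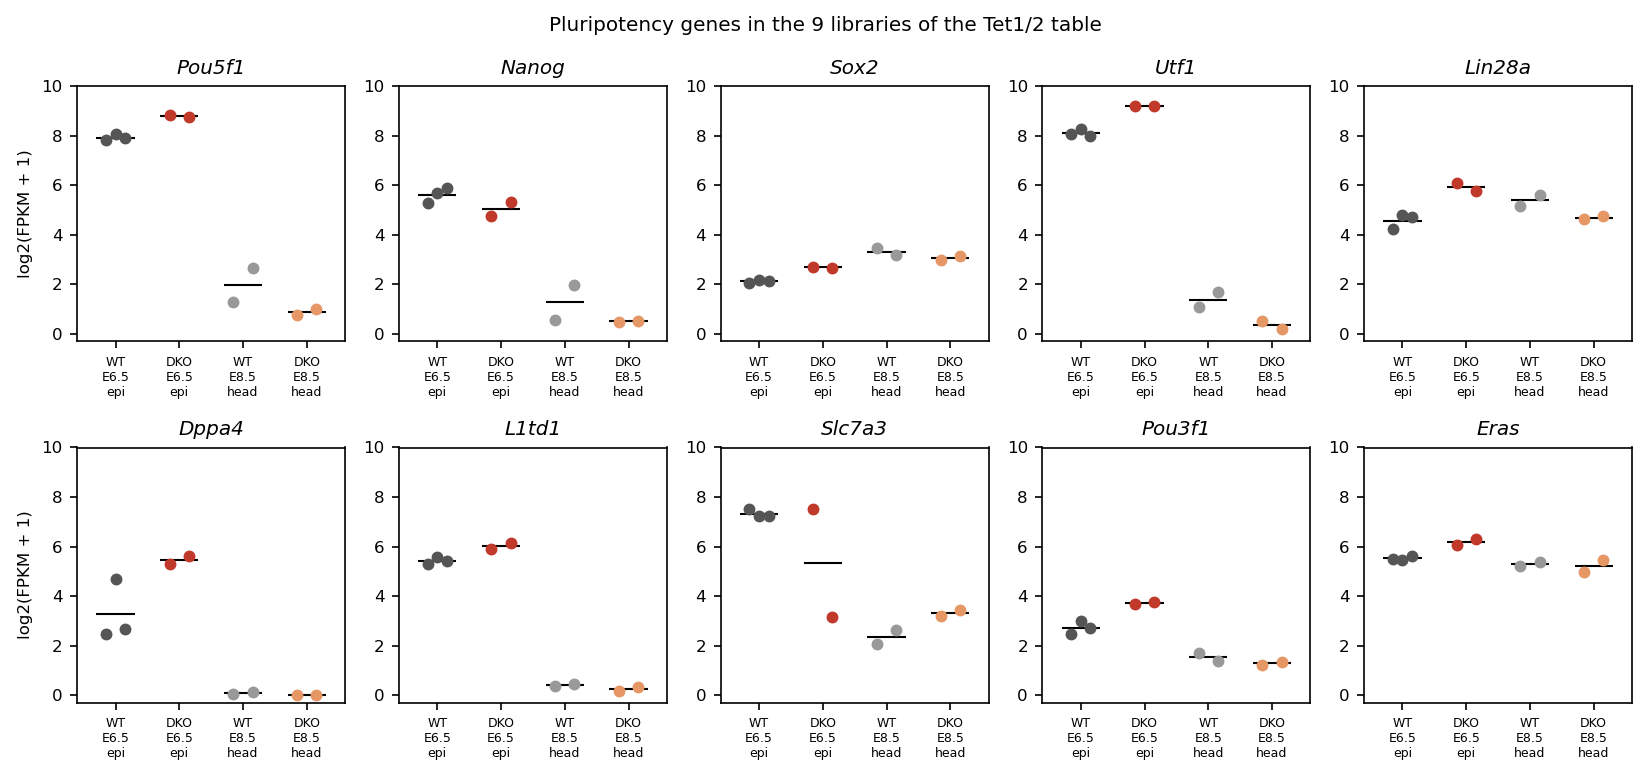
Level of each member, as log2(FPKM + 1), in the 9 libraries of the Tet1/2 table (epi, epiblast). Each point is 1 library and each bar the mean of its group. Pou5f1, Nanog, Utf1, Dppa4 and L1td1 were at 5.24 FPKM or less in every head, Sox2, Lin28a and Eras were at 6.79 or more, and the 2 DKO epiblasts were far apart for Slc7a3.

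From the WT epiblast to the WT head at E8.5, 7 members fell and 2 rose, and Eras did not pass the test. Among all 11261 genes tested, 17.1% fell and 19.9% rose. All 10 members passed the filter of at least 1 FPKM in at least 2 columns. Changes are differences of log2(FPKM + 1), tested with limma at an adjusted p under 0.05, and they understate the change of genes with low values. In a bulk sample, fewer cells of a type and less RNA per cell cannot be told apart. Utf1 went to 1.09 and 2.19 FPKM in the 2 WT heads, a change of -6.73 ± 0.19 (SE, adjusted p = 9.01e-07), which on the means is 168-fold lower. Pou5f1 went to 1.42 and 5.24 FPKM (-5.96 ± 0.32, adjusted p = 1.08e-05), and L1td1, whose protein works with Lin28 in pluripotent cells, to 0.279 and 0.379 (-5.02 ± 0.15, adjusted p = 9.01e-07). Nanog was at 0.482 and 2.93 FPKM (-4.34 ± 0.38, adjusted p = 0.000103). WT head 2 had the higher value for both Pou5f1 and Nanog, and every head was below every epiblast. Slc7a3 went to 3.19 and 5.15 FPKM, by -4.99 ± 0.99 (adjusted p = 0.00512), and Dppa4 to 0.0502 and 0.0907, by -3.19 ± 0.57 (adjusted p = 0.00320). The POU factor Pou3f1 fell the least, to 2.26 and 1.63 FPKM (-1.18 ± 0.19, adjusted p = 0.00217).

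Sox2 and Lin28a rose over the same interval. Sox2 was at 9.95 and 8.10 FPKM in WT heads, above all 3 epiblasts, a change of 1.20 ± 0.15 (adjusted p = 0.000561). Sox2ot, the noncoding gene around it, was at 0.955 to 1.96 FPKM in these heads. Lin28a was at 35.2 and 48.1 FPKM, a change of 0.83 ± 0.20 (adjusted p = 0.0123), but without WT head 2 its adjusted p was 0.102. Eras stayed at 36.7 and 40.8 FPKM against 43.3 to 47.7 in epiblasts, a change of -0.21 with a 95% interval from -0.55 to 0.13 (adjusted p = 0.308). Of the genes beside Eras, Hdac6 was at 42.4 to 56.9 FPKM in WT heads and 17.3 to 22.2 in WT epiblasts, and Pcsk1n at 4.71 to 5.49 and 2.04 to 3.42, and their part in the Eras value was not tested. Of 13 listed relatives from the POU and SoxB families, 6 were tested, of which 4 rose and 0 fell in the same interval. One of them, Sox21, went from a mean listed at 0 to 6.17 FPKM.

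Other genes of the pluripotency network were counted from lists without the members. Of 25 listed genes of formative and primed pluripotency, all tested, 14 fell and 1 rose. Tdgf1, the Nodal co-receptor Cripto, went from a mean of 193 to 0.548 FPKM, Nodal, a ligand that maintains the epiblast, from 26.4 to 0.00924 and 0 in the 2 heads, Fgf5 from 84.2 to 2.56, and Cdh1, which encodes E-cadherin, from 57.5 to 2.82. Of 16 listed genes of naive pluripotency, the state of the earlier blastocyst, 8 were tested, of which 4 fell and 1 rose, the latter being Gbx2, which is also a gene of the anterior hindbrain. Dppa5a went from 187 to 1.43 FPKM. On the list of the Lin28 and let-7 axis, 8 of 15 genes rose and 1 fell, with Hmga2 from 7.88 to 33.9 FPKM and the RNA-binding Igf2bp3 from 38.7 to 88.7 FPKM.

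In Tet1/2 DKO epiblasts, 7 of the 10 members were higher than in WT, beside 20.1% of the 11261 genes tested. Both DKO libraries lay above all 3 WT libraries for 8 members, beside 31.8% of genes. Lin28a, the RNA-binding repressor of let-7 maturation, was at 66.1 and 53.7 FPKM against 17.7 to 26.7 in WT. It rose by 1.35 ± 0.20 (SE, adjusted p = 0.00186), 2.59-fold on the means. Utf1 was at 589 and 590.4 FPKM, the highest level of any member in any library, and rose by 1.10 ± 0.19 (adjusted p = 0.00337). Pou3f1 was at 11.8 and 12.6 FPKM and rose by 0.996 ± 0.194 (adjusted p = 0.00611). Dppa4 was at 37.9 and 48.7 FPKM, above the highest of its 3 uneven WT values, and rose by 2.18 ± 0.57 (adjusted p = 0.0200). Eras (66.0 and 77.5 FPKM) rose by 0.66 ± 0.15 (adjusted p = 0.0113), L1td1 (58.2 and 68.8) by 0.57 ± 0.15 (adjusted p = 0.0193) and Sox2 (5.46 and 5.33) by 0.56 ± 0.15 (adjusted p = 0.0220).

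Pou5f1 was at 458 and 425 FPKM in the DKO epiblasts, above the 223 to 265 of WT, and 1.83-fold higher on the means. Its difference of 0.87 had a 95% interval from 0.13 to 1.61 and missed the threshold (adjusted p = 0.0661). The fit shares its spread with the heads, where Pou5f1 was uneven, and in a fit of the epiblast groups alone the adjusted p was 0.00295. Over all 16 alternatives it ran from 0.00255 to 0.151. The 7 calls also rested on few libraries. Utf1, Lin28a and Pou3f1 passed whichever of the 9 libraries was left out. Without DKO epiblast 2, these 3 alone passed. Without WT epiblast 1, 4 members passed, and without WT epiblast 3, 5 did.

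Nanog and Slc7a3 did not pass the test and had negative differences. Nanog was at 26.2 and 38.9 FPKM in DKO against 38.3 to 57.8 in WT epiblasts, and these ranges overlapped. Its difference was -0.57, with a 95% interval from -1.44 to 0.29 (adjusted p = 0.264). Slc7a3 split the DKO epiblasts, at 184 FPKM in the first, close to the highest WT library, and 7.94 in the second. Its difference of -1.99 had a 95% interval from -4.24 to 0.27 (adjusted p = 0.148). It was 0.20 without DKO epiblast 2 and -4.17 (adjusted p = 1.41e-05) without DKO epiblast 1. DKO epiblast 2 is the library with 1.75 FPKM of Xist and 0.0746 of Ddx3y. Eras, the other X-linked member, was at 77.5 FPKM there, above the 66.0 of DKO epiblast 1. Slc7a3 was not alone in splitting this pair. DKO epiblast 2 also had less Cldn6 (28.4 FPKM against 192 in DKO epiblast 1), Cdh1 (7.04 against 81.6) and Epcam (90.1 against 229). Other genes were higher in it, such as Ddx4 (12.9 against 6.48 FPKM). Between the 2 DKO epiblasts Pearson's r was 0.961, the lowest among the replicate pairs, which reached 0.989. The parts of sex and of this wider split in the Slc7a3 value were not tested.

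Most markers of the primitive streak, the site where epiblast cells leave to form mesoderm and endoderm, were lower in DKO than in WT epiblasts. The 13 listed genes summed to 189 to 466 FPKM in WT epiblasts and 32.0 to 38.3 in DKO epiblasts. Of 12 tested, 10 were lower and 0 higher, beside 1709 lower and 2261 higher of all 11261 genes. Mixl1 had a mean of 155 FPKM in WT and 1.55 in DKO epiblasts, Mesp1 23.4 and 0.150, Cyp26a1 19.0 and 0.192, and Fgf8 56.7 and 8.31. The summed visceral endoderm list was at 66.8 to 80.3 FPKM in WT and at 67.2 and 24.8 in DKO epiblasts. Most of that sum was Apoe, at 56.4 to 64.9 FPKM in WT and 61.7 and 13.3 in DKO epiblasts. Dab2, also on that list, was at 5.01 to 5.90 FPKM in WT and 3.50 and 6.39 in DKO epiblasts. The extraembryonic ectoderm list summed to 5.98 to 10.7 FPKM in WT and to 12.6 and 20.4 in DKO epiblasts. The part of these tissues in the members' differences was not tested.

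Among the other pluripotency genes, the DKO epiblast showed both directions. Of the 25 formative and primed genes, 8 were higher and 2 lower, beside 2261 higher and 1709 lower of all 11261 genes. Cldn6, a tight junction gene, was at 227 to 245 FPKM in WT epiblasts and split the DKO epiblasts, at 192 in the first and 28.4 in the second. Its difference of -1.66 ± 0.71 did not pass (adjusted p = 0.0997). Etv5, a target of Fgf signalling, had a mean of 58.8 FPKM in WT and 135 in DKO epiblasts (1.19 ± 0.12, adjusted p = 0.000393), and Dppa2, the partner and neighbour of Dppa4, 1.16 and 6.31 (1.83 ± 0.45, adjusted p = 0.0150). The 2 that fell were Nodal, from 26.4 to 5.82 FPKM (-2.03 ± 0.18, adjusted p = 0.000341), and its co-receptor Tdgf1, from 193 to 70.5 (-1.54 ± 0.33, adjusted p = 0.00933). Of the 8 naive genes tested, 2 were higher and 0 lower, with Dppa5a going from 187 to 413 FPKM (1.28 ± 0.35, adjusted p = 0.0231). On the Lin28 and let-7 list, 5 of 15 rose and 1 fell. Drosha, which cuts primary microRNA transcripts, went from 13.5 to 38.3 FPKM, and Igf2bp2 from 22.3 to 46.6.

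At E8.5, no member differed between Tet1/2 DKO and WT heads in limma's test, in which 47 of 10864 genes (0.433%) passed and 1832 had an unadjusted p under 0.05. Among those 1832 were 3 members, Utf1, Lin28a and Pou5f1. The sign was negative for 9 of 10. For 8 members both DKO heads lay below both WT heads, beside 32.1% of all genes. Utf1 was at 0.433 and 0.144 FPKM in DKO against 1.09 and 2.19 in WT heads (difference -1.01, 95% interval -1.60 to -0.43, adjusted p = 0.146). Lin28a was at 23.6 and 26.1 FPKM against 35.2 and 48.1 (-0.71, 95% interval -1.16 to -0.25, adjusted p = 0.175). Pou5f1 was at 0.698 and 0.975 FPKM against 1.42 and 5.24 (-1.09, 95% interval -2.13 to -0.04, adjusted p = 0.284). Nanog was at 0.406 and 0.415 FPKM against 0.482 and 2.93. Sox2 was at 6.79 and 7.93 FPKM against 9.95 and 8.10, and Pou3f1 at 1.33 and 1.55 against 2.26 and 1.63. L1td1 was at 0.112 and 0.260 FPKM, and Dppa4 was listed at 0 in both DKO heads. Slc7a3 was the member with DKO heads above WT heads, at 8.15 and 9.77 FPKM against 3.19 and 5.15 (0.97, 95% interval -2.26 to 4.19, adjusted p = 0.750). The fit shares its spread with the DKO epiblasts for every gene, and the heads were not fitted alone. These epiblasts were far apart for Slc7a3. Its SD of log2(FPKM + 1) was 3.09 in those epiblasts, 0.39 in WT heads and 0.17 in DKO heads. The width of its interval is therefore not that of the heads alone. Eras overlapped (30.1 and 42.7 against 36.7 and 40.8). The head libraries differed in tissue markers: the 7 heart muscle genes summed to 188 FPKM in WT head 2, 29.3 in WT head 1 and 4.91 to 8.07 in DKO heads, and the 6 blood genes to 377 in DKO head 1 and 4.93 or less in the others. The part of these tissues in the members' values was not tested.

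**Figure D2:**
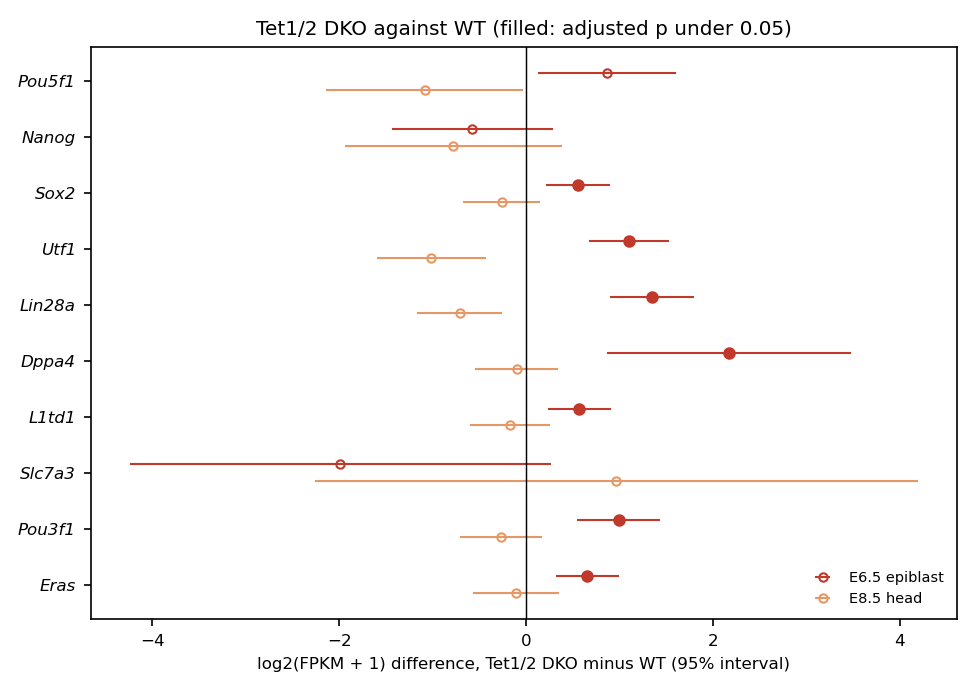
Difference of log2(FPKM + 1) between Tet1/2 DKO and WT for each member in the E6.5 epiblast and the E8.5 head, with limma's 95% interval. Filled points had an adjusted p under 0.05: 7 members in the epiblast, all above 0, and none in the head, where 9 of 10 points lie below 0.

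The DKO effect was tested for a difference between the stages as an interaction. It was lower in the head than in the epiblast for 7 members, beside 15.6% of genes. The difference was -2.12 ± 0.28 for Utf1 (SE, adjusted p = 0.00233), -2.06 ± 0.29 for Lin28a (adjusted p = 0.00310), -1.95 ± 0.48 for Pou5f1 (adjusted p = 0.0206) and -1.26 ± 0.29 for Pou3f1 (adjusted p = 0.0160). Sox2, Eras and L1td1 had smaller differences of -0.82, -0.77 and -0.74 (adjusted p = 0.0298, 0.0358 and 0.0401). Dppa4 (-2.27, adjusted p = 0.0788), Nanog (-0.20, adjusted p = 0.809) and Slc7a3 (2.95, adjusted p = 0.162) did not pass. The calls of Utf1 and Lin28a held without any 1 of the 9 libraries. The number called was 2 without DKO head 1, 3 without WT head 1 and 4 without WT epiblast 1 or WT epiblast 3.

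From epiblast to head within the DKO samples, 8 members fell, beside 26.1% of genes. Utf1 fell by 8.85 on the log2 scale, Pou5f1 by 7.92, L1td1 by 5.76, Dppa4 by 5.46, Nanog by 4.55 and Pou3f1 by 2.44. Lin28a, which had risen in WT, fell from 53.7 to 66.1 FPKM in DKO epiblasts to 23.6 to 26.1 in DKO heads (-1.23 ± 0.22, adjusted p = 0.00223). Eras fell by 0.98 (adjusted p = 0.00175). Sox2 missed the threshold at 0.38 (adjusted p = 0.0832), and Slc7a3 at -2.04 (adjusted p = 0.150), a value that was -4.22 (adjusted p = 2.47e-05) without DKO epiblast 2.

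In the Kmt2b KO epiblast at E6.5, 1 member was at least 2-fold higher than in WT, beside 1.07% of 11070 genes. This was Lin28a, at 22.8 FPKM in the WT and 63.2 in the KO merged value, a log2(FPKM + 1) difference of 1.43. Pou5f1 went from 245 to 451 FPKM (0.88), Dppa4 from 13.1 to 23.9 (0.82), Pou3f1 from 5.90 to 11.1 (0.81), L1td1 from 41.2 to 65.7 (0.66), Utf1 from 277 to 429 (0.63) and Sox2 from 3.43 to 5.14 (0.47). Eras was at 43.3 and 49.3 FPKM, Nanog at 46.8 and 41.9 and Slc7a3 at 155 and 137. The sign was positive for 8 of the 10, with a median of 0.65 beside -0.02 over all genes. These WT values come from the same epiblasts as the WT columns of the Tet1/2 table, so the KO and DKO differences share their controls.

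**Figure D3:**
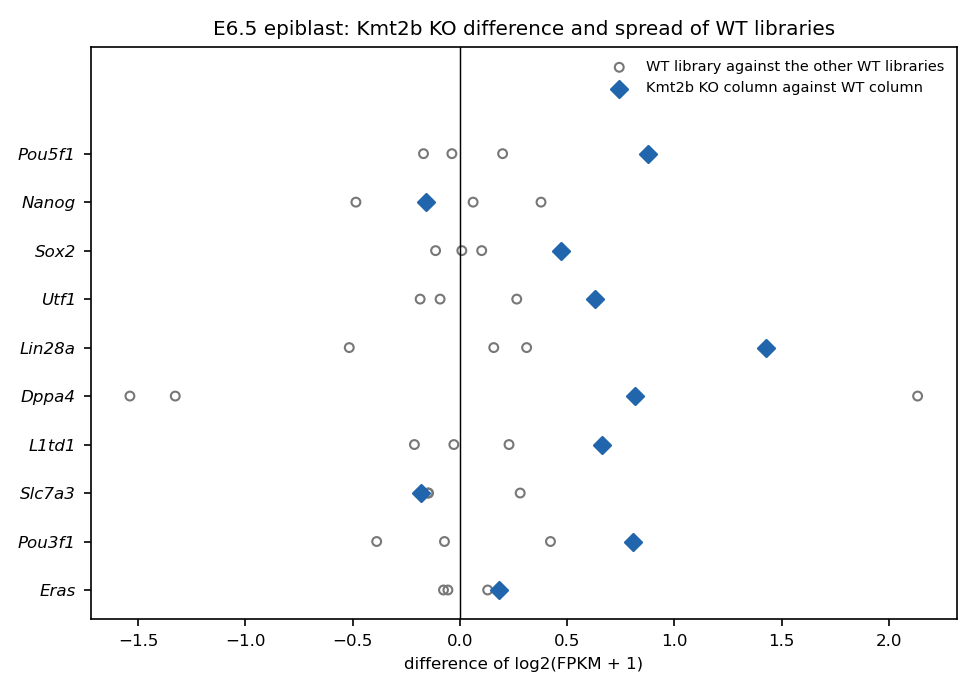
Difference of log2(FPKM + 1) between the merged Kmt2b KO and WT values at E6.5 (diamonds), and of each of the 3 WT epiblast libraries from the mean of the other WT libraries (circles). For 7 members the diamond lies to the right of all circles; those of Nanog, Dppa4 and Slc7a3 lie within the size of the WT deviations.

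The 3 WT epiblast libraries give a measure of spread for these merged values, though from a table normalized separately. For 7 members the KO difference was positive and larger in size than the deviation of every WT library from the mean of the others, beside 18.7% of genes. Negative differences were not counted here. The largest WT deviation was 0.52 for Lin28a, 0.20 for Pou5f1 and 0.11 for Sox2, and for Eras it was 0.13 beside a KO difference of 0.18. For Dppa4, Nanog and Slc7a3 the KO difference was smaller in size than the largest WT deviation (2.13 for Dppa4). For Slc7a3 the KO difference of -0.18 lay below all WT deviations, which were 0.28, -0.149 and -0.146. The streak list summed to 313 FPKM in WT and 173 in KO epiblasts, and 4 of its 12 genes passed 2-fold downward and 0 upward, among them T (14.8 and 5.05) and Cyp26a1 (17.4 and 6.17). Of all 11070 genes, 68 passed 2-fold downward and 119 upward. The WT libraries were uneven for the streak list, which summed to 466, 189 and 368 FPKM in the 3 WT epiblasts of the Tet1/2 table. There the SD of log2(FPKM + 1) was 0.62 for T and 1.01 for Cyp26a1. Xist was at 0.0954 FPKM in the WT and 2.01 in the KO merged value. The part of streak cells or of sex in the members' differences was not tested.

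**Figure D4:**
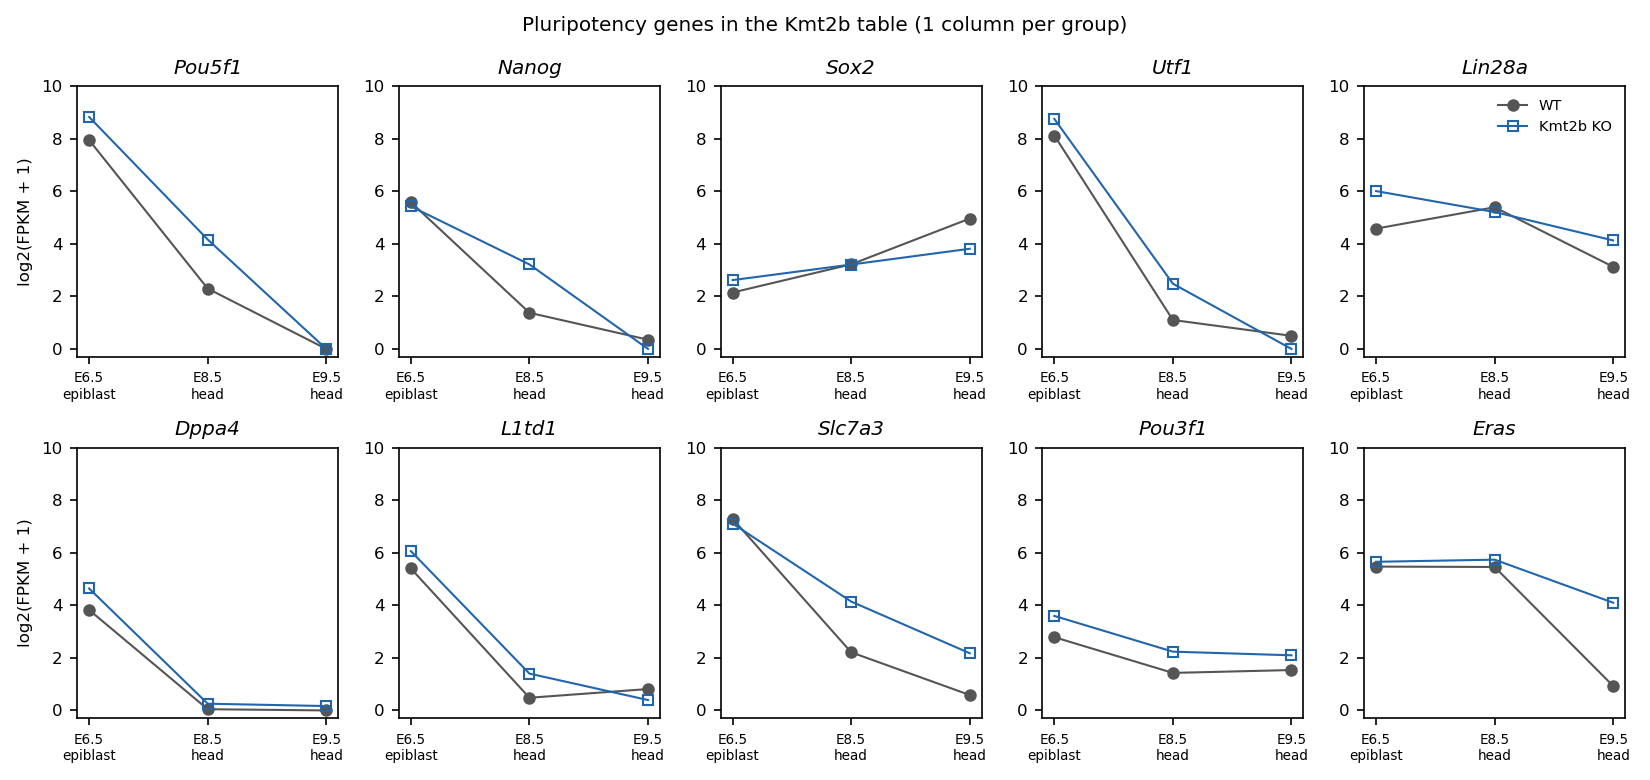
Level of each member, as log2(FPKM + 1), in WT and Kmt2b KO samples at the 3 stages of the Kmt2b table. Each point is 1 column of the authors' values: merged replicates, except the E9.5 KO point, which is 1 library. The KO lines for Pou5f1, Nanog, Utf1 and Slc7a3 lie above those of WT at E8.5, and Eras differs most at E9.5, with 0.904 FPKM in WT against 16.1 in KO.

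At E8.5, 4 members were at least 2-fold higher in Kmt2b KO than in WT heads, beside 2.22% of genes, and none was lower. Pou5f1 went from 3.91 FPKM in WT heads to 16.9 in KO heads (difference 1.87), Nanog at 1.59 and 8.27 (1.84), Utf1 at 1.14 and 4.58 (1.38), and the transporter gene Slc7a3 at 3.63 and 16.6 (1.93). In each case the KO head was still below the KO epiblast, where these genes were at 451, 41.9, 429 and 137 FPKM. L1td1 (0.397 and 1.64 FPKM), Pou3f1 (1.69 and 3.71) and Dppa4 (0.0326 and 0.194) also had higher values in KO but stayed under the 2-fold call on the log2(FPKM + 1) scale. Sox2 (8.30 and 8.25), Lin28a (40.9 and 35.9) and Eras (42.9 and 52.2), the 3 members with the highest levels in WT heads, differed by at most 0.28 on that scale. Ddx3y was at 2.21 FPKM in the WT and 7.12 in the KO merged value, and Xist at 9.17 and 6.23, and the part of sex in the value of the X-linked Slc7a3 was not tested. The WT heads of the Tet1/2 table, normalized separately, held 1.42 and 5.24 FPKM of Pou5f1, 0.482 and 2.93 of Nanog, 1.09 and 2.19 of Utf1 and 3.19 and 5.15 of Slc7a3, all below the KO values here.

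The same heads were examined for the rest of the pluripotency network. Of all 11070 genes, 246 passed 2-fold upward in KO heads and 276 downward. Of the 25 formative and primed genes, 7 passed 2-fold upward in KO and 0 downward, among them Cdh1 (3.01 FPKM with Kmt2b, 15.3 without it), Pim2 (54.0 and 218) and Epcam (26.7 and 80.6). Of the 12 neural plate and brain genes kept, 5 passed 2-fold downward and 0 upward, with Pax6 at 19.5 and 4.59 FPKM and Rax at 7.77 and 1.56, and the list summed to 163 in WT and 109 in KO. Lists of other tissues differed too. The visceral endoderm list summed to 68.4 FPKM in WT and 146 in KO, with 2 of its 4 genes kept past 2-fold upward and 1 downward. Most of that sum was Apoe, a lipoprotein gene that many tissues express, at 54.4 and 124 FPKM, while Rbp4 was at 2.71 and 0.447. The streak list summed to 44.0 and 68.8, with 1 of 12 genes past 2-fold, the retinoic acid-degrading Cyp26a1 at 7.58 and 36.0 FPKM, while Snai1 was at 17.9 and 11.6. The surface ectoderm list summed to 214 and 322. The 2 of its 7 genes past 2-fold were Epcam and Cdh1, which are also on the formative and primed list, and Grhl3 was at 4.11 and 1.74. The blood list summed to 98.2 and 5.04. The germ cell list, which matters because germ cells keep Pou5f1 and Nanog on, summed to 12.9 and 22.8, with positive differences for 4 of its 7 genes kept, 1 of them past 2-fold. Dppa3 was at 0.389 and 2.61 FPKM, Prdm1 at 2.61 and 5.44, Kit at 4.57 and 8.66 and Tfap2c at 3.57 and 5.75. Dnd1 (1.01 and 0.0501 FPKM), Ddx4 (0.504 and 0.252) and Sycp3 (0.134 and 0.0699) were lower in KO, and Dazl and Nanos3 were at 0.187 or less in every column of the Kmt2b table. The part of these tissues in the members' values was not tested.

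At E9.5, 3 members were at least 2-fold higher and 1 lower in the KO library than in WT heads, beside 8.27% of genes past that fold in either direction. Eras was at 0.904 FPKM in WT and 16.1 in KO (3.17), Slc7a3 at 0.501 and 3.52 (1.59), Lin28a at 7.72 and 16.5 (1.002) and Sox2 at 30.1 and 13.0 (-1.15). The Lin28a call was lost when the columns were scaled to the same median (0.969) or quantile normalized together (0.985), which left 2 members higher and 1 lower. Eras and Slc7a3 are X-linked, Xist was at 8.08 FPKM in WT and listed at 0 in KO, and Ddx3y was at 3.20 and 9.34, and the part of sex in these values was not tested. Hdac6, beside Eras, was at 10.3 and 19.2 FPKM, and Pcsk1n, which overlaps Eras, at 0.0496 and 0.437. Their part in the Eras value was not tested. Pou5f1 was listed at 0 in both, and Nanog and Utf1 at 0.276 and 0.413 FPKM in WT and at 0 in KO. Dppa4 was listed at 0 in WT and at 0.122 in KO, L1td1 was at 0.757 and 0.315 FPKM, and Pou3f1 at 1.90 and 3.28. The KO value is 1 library, its column carries another tissue code than the head, and its 7 heart muscle genes summed to 2408 FPKM against 20.9 in WT heads. The neural list summed to 352 FPKM in WT and 109 in KO. Most of the WT sum was Fabp7, at 244 FPKM in WT and 21.6 in KO. Of the 12 neural genes kept, 2 passed 2-fold downward and 1 upward, and 5 had positive differences. The E9.5 columns were not normalized with the others, and the part of tissue in these values was not tested.

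Over the whole WT course in the Kmt2b table, whose E9.5 column was normalized apart from the rest, 9 members were at least 2-fold lower at E9.5 than in the epiblast, beside 16.6% of genes. Sox2 was the exception, at 3.43 FPKM in the epiblast, 8.30 in the E8.5 head and 30.1 in the E9.5 head. Lin28a and Eras were lower at E9.5 but not at E8.5: Lin28a was at 22.8, 40.9 and 7.72 FPKM and Eras at 43.3, 42.9 and 0.904 over the 3 stages.

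Across the 9 libraries of the Tet1/2 table the members fell into different patterns, given here as a description over libraries that share the contrast of epiblast and head. For Pou5f1, Nanog, Utf1, Dppa4, L1td1 and Pou3f1, a set of 6 named after their values were seen, the 15 pairwise correlations of log2(FPKM + 1) ran from 0.851 to 0.998. Sox2 had negative correlations with all 6, from -0.88 (Nanog) to -0.59 (Pou3f1), with -0.81 to Pou5f1. Lin28a had r = 0.20 to Pou5f1. Among all genes with at least 5 FPKM in a library, those most like Pou5f1 were Rbpms2 (r = 0.9995), Vrtn (0.999) and Utf1 itself (0.998). Those most like Nanog were Eci1 (0.992), Fuom (0.991) and Dnd1 (0.991), and Dnd1 was at 5.04 to 6.75 FPKM in WT epiblasts and 0.648 to 1.42 in WT heads. Those most like Sox2 were Esd (0.992), A430005L14Rik (0.990) and Bag5 (0.990).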

How the data were processed

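The expression tables deposited by the authors hold FPKM per gene. TopHat2 (2.0.11), Cufflinks (2.0.2) and the build mm9 are named in the submitters' processing notes, without a role for each. In the Kmt2b table the authors merged the replicates of a group into 1 column. By rank, its E6.5 and E8.5 columns differ by at most 0.130% and those of the Tet1/2 table by 0.208%, as quantile normalization would leave them, and the E9.5 columns by up to 72.3%. Total FPKM per used column was 452455 to 506442, and depth and counting error are unknown. A further 2 columns of the Kmt2b table match no listed sample and stayed unused. Groups came from the labels.

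Rows with names turned into dates (27) and small RNAs (9) were dropped. Values were used as log2(FPKM + 1), and genes had to reach 1 FPKM in 2 or more of the columns fitted (leaving 11070 in the Kmt2b table, 11261 over 9 libraries, 10864 over the 6 of the head comparison). The Tet1/2 libraries went into limma 3.58.1 (R 4.3.3; eBayes with trend, 4 groups, two-sided, Benjamini-Hochberg adjusted p over all genes), which was tested on simulated data. The head comparison left out the WT epiblasts. For the Kmt2b table, differences of at least 2-fold on the log2(FPKM + 1) scale were counted. The members and gene lists were chosen with earlier results of these data known. Named were all members, the 3 genes most like Pou5f1, Nanog and Sox2, the targeted genes, Xist and Ddx3y, and up to 4 genes per list with the largest differences and at least 5 FPKM in a group, except for 1 gene not reported here. Named after their values were seen were the genes beside or overlapping members, Etv5 and Igf2bp3, and Dppa3, Dazl and Nanos3 in the heads. Alternatives covered the pseudocount, the filter, scaling, the trend, the groups in the fit, the fold, the replicate number and each left-out library. DNA methylation files (mm9) and other assays of the study were not used here.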

Additional observations from a re-analysis of the deposited data

Results flagged for a closer look

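The effect of Tet1/2 loss differed between the E6.5 epiblast and the E8.5 head for 7 members by limma's interaction test. The log2 effect in the head minus that in the epiblast was -1.95 for Pou5f1, -0.82 for Sox2, -2.12 for Utf1, -2.06 for Lin28a, -0.74 for L1td1, -1.26 for Pou3f1 and -0.77 for Eras. On the means, all 7 were higher in DKO than in WT epiblasts and lower in DKO than in WT heads. The WT epiblasts come from another set than the other libraries, and the sexes differ between WT and DKO heads.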

How the results depend on the processing

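Of the members' single tests under other settings than a left-out library, 308 kept their direction and side of the threshold, 9 no longer passed, 2 newly passed and 1 changed sign, and with a library left out these numbers were 377, 32, 6 and 5. None of the 6 that changed sign passed the test in either fit. With a library left out, the difference of Slc7a3 ran from -4.17 to 0.20 (without DKO epiblast 2) in DKO epiblasts and from -4.22 to 0.15 (without DKO epiblast 1) in the DKO course, and that of Eras in DKO heads from -0.35 to 0.14 (without DKO head 1). The interaction of Nanog ran from -0.91 to 0.50 (without WT head 2), and was 0.075 without DKO epiblast 2 and 0.24 with a pseudocount of 5. The number of members called in DKO epiblasts (7) was 3 to 8 with a library left out, and that of the interaction (7) was 2 to 8, and 4 with no filter on low values. The number of genes called ran from 2566 to 4496 for DKO epiblasts (2567 with the epiblast groups alone), 3 to 131 for DKO heads (28 with no filter, 160 with all 9 libraries in 1 fit), 2199 to 4888 for the WT course, 3416 to 5638 for the DKO course and 1167 to 4160 for the interaction.

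With the replicate number as a replicate block, 6 members and 3155 genes were called in DKO epiblasts, 0 and 32 in heads, 9 and 3447 in the WT course, 8 and 5413 in the DKO course and 6 and 2359 for the interaction. Same-numbered libraries deviated together with r from -0.01 to 0.19, so the numbers were not taken as pairs.

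Of the single differences in the Kmt2b table, 210 moved by less than 1 SD of the WT libraries and 60 by more, none of those at 2-fold changing sign. The 210 include those with no filter on low values, a setting that cannot move a member's own difference. The SD was that of the WT epiblasts or E8.5 WT heads of the Tet1/2 table, also for the E9.5 values. A call at 1.5-fold gave 6 members and 1022 genes at E6.5, 1796 genes at E8.5, 2848 at E9.5, and 3316 and 6094 for the WT course to E8.5 and E9.5. A pseudocount of 0.1 gave 587 genes at E6.5, 7 members and 1149 genes at E8.5, 8 members and 1708 genes at E9.5 and 2401 genes for the WT course to E8.5. A pseudocount of 5 gave 41, 152 and 325 genes at the 3 stages, 1 member at E9.5, and 547 and 1554 genes for the WT courses. Without read counts, the precision of low values such as those of Dppa4 in heads is unknown.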
